A study of Mus musculus with 16 samples.

Results

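Binding of reprogramming factors was examined around 10 genes of the naive pluripotency network: Nanog, Esrrb, Zfp42, Dppa5a, Tdgf1, Sall4, Lin28a, Klf5, Klf2 and Tfcp2l1. All peak summits of 13 ChIP-seq libraries that lay within 50 kb of the annotated start of one of these genes were taken (mouse build mm10, GENCODE M21). This gave 71 of the 227116 summits. Summits of different libraries within 100 bp of the next were joined, which left 50 sites. In ChIP-seq, the DNA bound by a protein is pulled down with an antibody and sequenced, and a summit is the position of highest signal within a peak.

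The cells were OG2 mouse embryonic fibroblasts, which carry a GFP reporter driven by the Oct4 promoter. They received Sox2 and Klf4 (SK) from pMX retroviruses together with 1 POU factor, and day 0 was the change into the chemically defined medium iCD1. Oct4-SK cells were profiled with an Oct4 antibody at days 1, 5 and 7 and with a Sox2 antibody at days 1 and 5. Oct4defSox2-SK cells, which received the engineered Oct4 also named YR, were profiled with both antibodies at days 1 and 5. In Oct6-SK cells, Sox2 was profiled at days 1 and 5. The swapped mutants Oct4 S151M and Oct6 M151S were profiled with the Oct4 and the Oct6 antibody, at day 1 by their titles, although another label of the Oct6 M151S sample gives day 2. Each of the 13 groups held 1 library, so no difference between groups has a replicate check and no p-value is given. Each library was made from a bulk population, so the share of cells with a factor bound and the strength of binding in each cell cannot be told apart. The labelled cell type was not checked here, since the files give no expression.

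Naive pluripotency is kept by a network of transcription factors that sustain their own and each other's transcription, and in embryonic stem cells many of their genes are bound by Oct4 and Sox2 together. Oct4 and Sox2 can bind side by side on the composite SoxOct element, whereas POU factors can pair with themselves on the palindromic MORE. Several of them, such as Nanog and Zfp42, are silent in fibroblasts and are switched on late in reprogramming.

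Of the 50 sites, 9 held summits of 2 or more libraries, and 8 of these are shown with 201 bases of the plus strand of mm10 centred on the site. They carry most of the shared binding described below. The remaining shared site, at Klf5, overlaps a UTR and is not shown. Capitals mark matches to the SoxOct element, the octamer ATGCAAAT or the Sox motif CCNTTGT on either strand, so that ACAAAGG is a Sox match on the minus strand. The site 4.44 kb upstream of Nanog is chr6:122702952-122703152, and those 24.7 and 42.1 kb downstream of the start of Zfp42 are chr8:43282134-43282334 and chr8:43264744-43264944. The Dppa5a site is chr9:78332765-78332965, the Lin28a site is chr4:133983489-133983689 and the Klf2 site is chr8:72316160-72316360. The distal and proximal Tfcp2l1 sites are chr1:118578239-118578439 and chr1:118625524-118625724.
Nanog, 4.44 kb upstream: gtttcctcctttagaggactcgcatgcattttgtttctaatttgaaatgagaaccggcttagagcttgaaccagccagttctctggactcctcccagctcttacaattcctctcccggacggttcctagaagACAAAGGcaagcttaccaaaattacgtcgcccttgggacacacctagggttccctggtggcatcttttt
Zfp42, 24.7 kb downstream: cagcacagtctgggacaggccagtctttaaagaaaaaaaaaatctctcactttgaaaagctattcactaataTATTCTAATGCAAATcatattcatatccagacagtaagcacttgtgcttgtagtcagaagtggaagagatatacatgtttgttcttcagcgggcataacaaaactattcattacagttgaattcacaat
Zfp42, 42.1 kb downstream: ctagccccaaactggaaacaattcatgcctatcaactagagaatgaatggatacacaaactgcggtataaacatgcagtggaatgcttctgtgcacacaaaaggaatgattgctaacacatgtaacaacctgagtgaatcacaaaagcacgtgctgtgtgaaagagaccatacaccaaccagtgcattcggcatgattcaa
Dppa5a, 35.3 kb downstream: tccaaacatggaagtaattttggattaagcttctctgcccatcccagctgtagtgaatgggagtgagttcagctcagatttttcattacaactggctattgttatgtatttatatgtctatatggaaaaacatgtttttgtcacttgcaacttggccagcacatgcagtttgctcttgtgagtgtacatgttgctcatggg
Lin28a, 35.3 kb downstream: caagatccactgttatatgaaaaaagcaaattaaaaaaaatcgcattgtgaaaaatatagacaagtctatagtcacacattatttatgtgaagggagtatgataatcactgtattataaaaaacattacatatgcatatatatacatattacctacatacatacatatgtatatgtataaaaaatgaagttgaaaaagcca
Klf2, 2.77 kb upstream: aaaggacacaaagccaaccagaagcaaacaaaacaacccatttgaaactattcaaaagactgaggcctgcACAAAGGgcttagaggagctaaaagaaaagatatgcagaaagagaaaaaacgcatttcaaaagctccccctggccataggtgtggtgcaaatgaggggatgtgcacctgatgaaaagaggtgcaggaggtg
Tfcp2l1, 49.6 kb upstream: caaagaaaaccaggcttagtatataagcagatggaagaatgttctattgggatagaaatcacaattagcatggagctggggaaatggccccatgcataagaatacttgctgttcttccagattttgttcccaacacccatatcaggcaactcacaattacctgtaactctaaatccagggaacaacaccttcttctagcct
Tfcp2l1, 2.32 kb upstream: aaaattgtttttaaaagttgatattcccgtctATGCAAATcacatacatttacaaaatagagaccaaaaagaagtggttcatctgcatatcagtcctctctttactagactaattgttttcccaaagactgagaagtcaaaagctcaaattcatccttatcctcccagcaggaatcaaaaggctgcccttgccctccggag

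The libraries differed widely in how many summits were called, from 1038 for Oct4defSox2 at day 5 to 101170 for Oct4 S151M. The score of a summit is the −log10 p-value of the peak caller, and the lowest score was about 4 in 12 libraries. The Oct6 M151S list went down to 2.30, and 56.7% of its summits scored under 4. Counts of genes with a summit are therefore read against the share of all 21938 protein-coding genes with one in the same library. Intervals in brackets are 95% Wilson intervals and cover counting error only.

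At day 1 Oct4 of Oct4-SK cells had a summit near 3 of 10 genes (10.8% to 60.3%), Dppa5a, Klf2 and Tfcp2l1, against 22.7% of all coding genes. At day 5 it had one near Tfcp2l1 alone, 1 of 10 (1.79% to 40.4%) against 19.2%. At day 7 it had summits near Klf2 and Tfcp2l1, 2 of 10 (5.67% to 51.0%) against 13.9%. On any of the days the same 3 genes had an Oct4 summit, against 35.9% of all coding genes. Each of these intervals includes the share of all coding genes.

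Oct4defSox2 had summits near 7 of 10 genes at day 1 (39.7% to 89.2%), against 55.3% of coding genes. They were Zfp42, Dppa5a, Tdgf1, Lin28a, Klf5, Klf2 and Tfcp2l1, which include the 3 genes with Oct4. At day 5 it had none near any of the 10 (0 to 27.8%), against 4.86%. Of the Oct4 summits of day 1 near the genes, 3 of 4 lay within 100 bp of an Oct4defSox2 summit of day 1, against 57.4% of the Oct4 summits elsewhere. The Oct4 summit of day 5 near Tfcp2l1 had no Oct4defSox2 summit of day 5, which 10.6% of the others had. Oct4defSox2 at day 5 was the shortest list of all, with 1038 summits against 31070 at day 1. With the 1038 strongest summits of each library, Oct4defSox2 had one near 0 of the 10 genes on either day.

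Sox2 had summits near Zfp42, Klf5 and Tfcp2l1 in Oct4-SK cells at day 1, 3 of 10 against 37.9% of coding genes. At day 5 they lay near Nanog and Klf2, 2 of 10 against 23%. Of the 5 Sox2 summits of day 1 near the genes, 0 met one of day 5 (0 to 43.4%), against 7.23% of those elsewhere. In Oct6-SK cells, Sox2 had a summit near Zfp42 at day 1, 1 of 10 against 6.93%. Zfp42 and Tfcp2l1 had one at day 5, 2 of 10 against 9.97%. In Oct4defSox2-SK cells, Zfp42 and Klf2 had one at day 1, 2 of 10 against 13%. At day 5 Nanog, Sall4, Klf5 and Klf2 had one, 4 of 10 against 57.7%. The intervals for these counts ran from 1.79% to 40.4% for 1 gene and from 16.8% to 68.7% for 4 genes, and each included the share of all coding genes.

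Oct4 S151M had summits near 9 of 10 genes, all except Esrrb, against 88% of coding genes. Oct6 M151S had them near Zfp42, Dppa5a, Sall4, Klf5 and Klf2, 5 of 10 against 61.2%, but with scores of at least 4, a limit chosen after seeing the data, near Zfp42 alone. All 4 Oct4 summits of day 1 near the genes lay within 100 bp of an Oct4 S151M summit, against 78.2% of Oct4 summits elsewhere. The Oct4 S151M library accounted for 31 of the 71 summits near the genes, and for 101170 of the 227116 summits of the series. Its mean was 3.1 summits for each of the 10 genes, against 3.60 for each coding gene. Of the 50 sites, 25 were of this library alone.

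**Figure D1:**
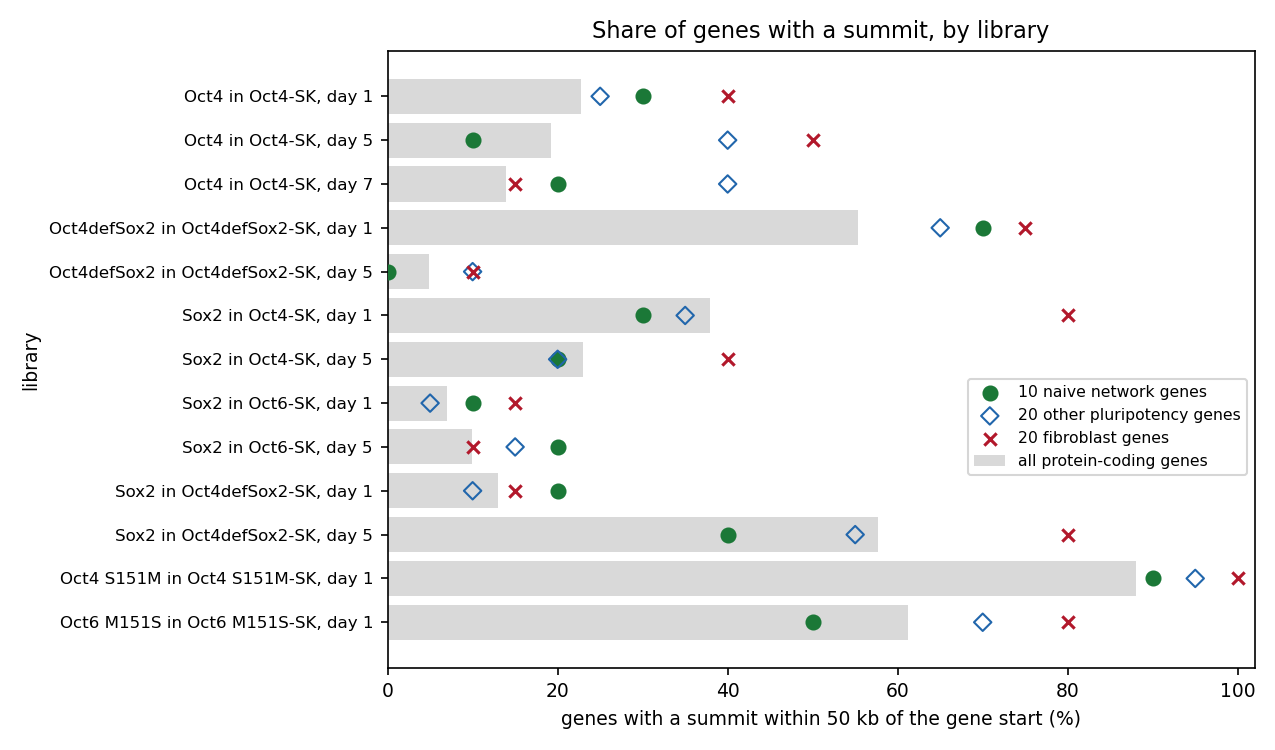
Share of genes with a summit within 50 kb of the gene start (x axis, percent) in each of the 13 libraries (y axis). Grey bars are all 21938 protein-coding genes, green circles the 10 genes, blue diamonds 20 other pluripotency genes and red crosses 20 fibroblast genes; in the Oct4defSox2 library of day 5 the circle is at 0.

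Across libraries, the 10 genes had summits in a median of 3.5 of the 13 libraries, against 4 for all coding genes. The median was 4.5 for 20 other pluripotency genes, such as Dppa3 and Tet2, and 6 for 20 fibroblast genes, such as Col1a2 and Twist1. An Oct4 summit of any day in Oct4-SK cells lay near 11 of the 20 other pluripotency genes. Such a summit lay near 13 of the 20 fibroblast genes and near 35.9% of all coding genes. The lists were chosen with earlier results of these data known, so they give no independent comparison. Klf2 had summits in 8 libraries, Zfp42 and Tfcp2l1 in 7, and Klf5 in 5. Dppa5a had them in 4, Nanog and Sall4 in 3, and Tdgf1 and Lin28a in 2. For Dppa5a, Sall4, Klf5 and Klf2 these counts include Oct6 M151S, whose summits there scored under 4. Esrrb had none, as had 6.19% of all coding genes.

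**Figure D2:**
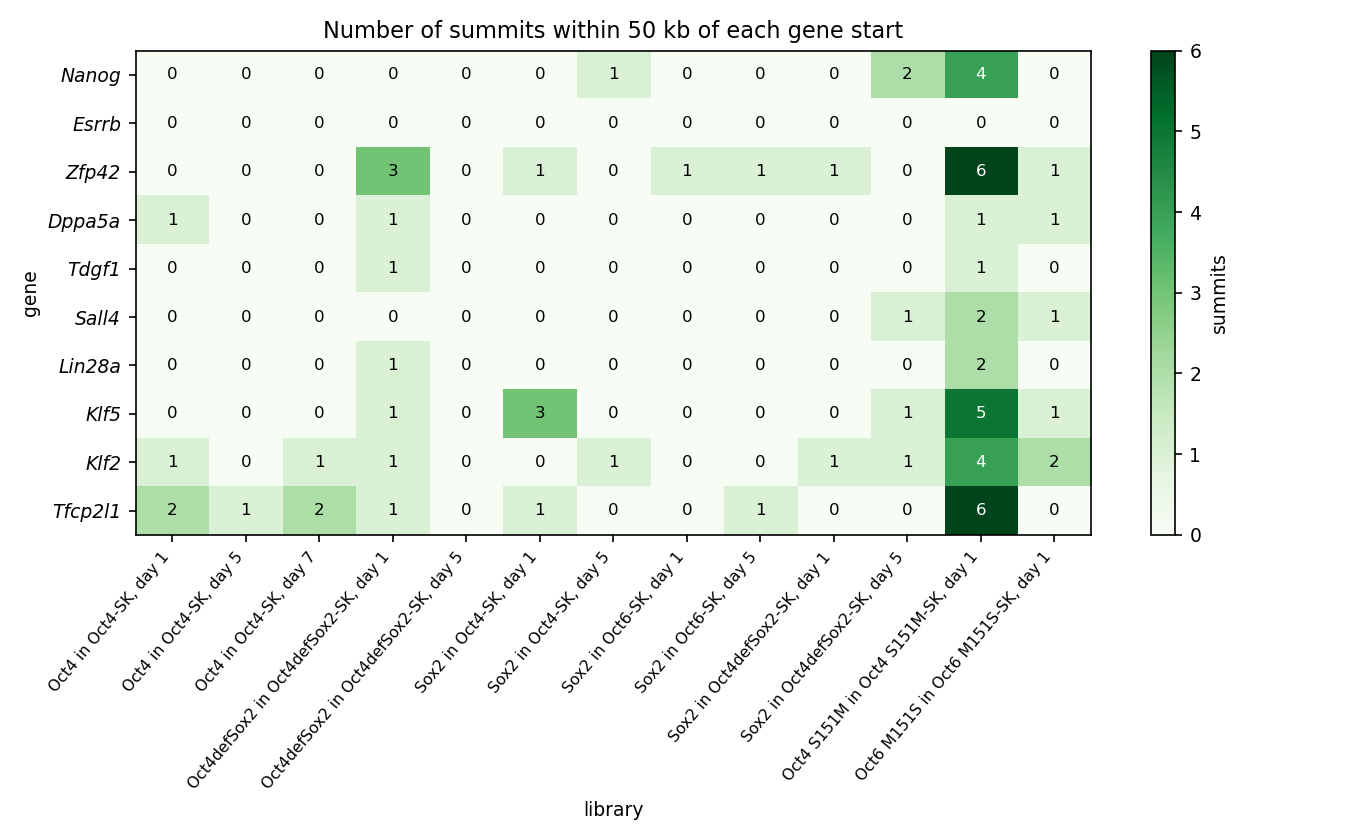
Number of summits within 50 kb of the start of each gene (rows) in each library (columns), with the count written in each cell. Oct4 S151M gave up to 6 summits per gene, and the Esrrb row is 0 throughout.

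Nanog encodes a homeodomain factor of the core network. No library of Oct4 or Oct4defSox2 had a summit within 50 kb of it. Sox2 had a summit 4421 bp upstream in Oct4-SK cells at day 5, with a score of 11.9, and another 4454 bp upstream in Oct4defSox2-SK cells at day 5, with a score of 5.95. These summits lay 33 bp apart, in the sequence shown above with its Sox match, and no day 1 library had a summit there. A second Sox2 summit of Oct4defSox2-SK cells at day 5 lay 20492 bp upstream (score 8.62). Oct4 S151M had 4 summits, with scores from 6.41 to 33.5. Just outside the window, 51323 to 51436 bp downstream, stood summits of Oct4defSox2 at day 1 (score 33.1) and of Sox2 in 4 libraries, of which Oct4defSox2-SK at day 5 scored 50.7. The nearest Oct4 summit in Oct4-SK cells was 52373 bp downstream, at day 5 (score 11.1).

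Esrrb, an orphan nuclear receptor of the naive network, had no summit in any of the 13 libraries. Its nearest summit was one of Oct6 M151S 57130 bp upstream (score 4.22). The nearest Oct4 summit was 463341 bp away at day 1, 409975 bp at day 5 and 409974 bp at day 7, where it scored 51.5. The annotated transcripts of Esrrb start at up to 143292 bp inside the gene. Within 50 kb of that start lay 1 summit of Oct4 S151M (score 42.1) and 2 of Oct6 M151S, and none of the other 11 libraries.

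Zfp42 encodes the zinc finger protein Rex1, a widely used marker of the naive state. It had 14 summits and none of Oct4 in Oct4-SK cells, whose nearest summit was 705441 bp away at day 1. The site 42.1 kb downstream of its start held summits of 6 libraries, the most of any site. Oct4defSox2 at day 1 scored 22.3 there, which 18.9% of its summits reached. Sox2 scored 9.19 in Oct4-SK cells, 10.4 in Oct4defSox2-SK cells and 6.29 in Oct6-SK cells at day 1. In Oct6-SK cells at day 5 it scored 11.7, and Oct6 M151S scored 6.38. This site was the only summit of Sox2 near any of the 10 genes in Oct6-SK cells at day 1. It held no POU or Sox match but 2 matches to the AP-1 motif TGANTCA. Such a match lay at 12.7% of all 172804 sites of the series, in windows of the same length.

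The site 24.7 kb downstream of the Zfp42 start held Oct4 S151M (score 21.6) and Oct4defSox2 at day 1 (score 9.26), and neither Sox2 nor Oct4. It carried the only SoxOct match among the 50 sites, with 2 mismatches, which contains an octamer. That is 2% of the 50 sites, against 2.19% of all sites of the series. A further Oct4 S151M summit 490 bp away scored 84.9 and lay on a MORE match with 1 mismatch. Oct4 S151M had 4 other summits near Zfp42, with scores from 11.0 to 13.7.

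Dppa5a encodes an RNA-binding protein of pluripotent cells. A site 35.3 kb downstream of its start held Oct4 at day 1 (score 25.5), Oct4defSox2 at day 1 (11.0) and Oct4 S151M (90.6). Of the Oct4 summits of day 1, 13.1% scored as high. The site lay in an intron of Gsta2, and the nearest coding gene start was that of Omt2b. Oct4 was not called there at days 5 and 7. The other summit near Dppa5a was one of Oct6 M151S, with a score of 3.74, in an intron of Ddx43.

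Tdgf1 encodes Cripto, a co-receptor of Nodal signalling. It had 2 summits, both in its own introns near the start. Oct4 S151M had one 964 bp inside the gene (score 10.9) and Oct4defSox2 at day 1 one 1103 bp inside (score 11.5). They lay 139 bp apart and were kept as separate sites. The Oct4defSox2 site held a MORE match with 1 mismatch, a Sox match and a match to the KLF motif GGGNGNGGC. Oct4 itself had summits 67848 bp upstream at day 1 (score 34.7) and 67896 bp upstream at day 5 (score 16.5), outside the window.

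Sall4, a zinc finger factor, and Lin28a, an RNA-binding protein that blocks let-7 maturation, had no Oct4 summit of Oct4-SK cells within 50 kb. Sall4 had 2 Oct4 S151M summits (scores 9.32 and 11.9), 1 of Oct6 M151S (3.27) and 1 of Sox2 in Oct4defSox2-SK cells at day 5 (7.24). The Sox2 summit lay in a UTR of Atp9a. Oct4 at day 7 had a summit 50559 bp downstream of the Sall4 start, just beyond the window (score 11.2). Counted from any annotated transcript start, this summit lay within 50 kb of Sall4, and the genes with an Oct4 summit at day 7 numbered 3 rather than 2.

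Near Lin28a stood the highest-scoring summit of the 71, of Oct4 S151M, with a score of 595 and a 90.1-fold enrichment by the peak caller. It ranked 570 of the 101170 summits of its library. It lay 35212 bp downstream of the Lin28a start, in an intron of Dhdds, with Hmgn2 as the nearest coding gene. Oct4defSox2 at day 1 had a summit 80 bp away with a score of 5.71, and 92.6% of its summits scored as high. No motif matched there at the mismatches allowed. With 1 mismatch more the MORE matched at 4 positions, which overlapped in pairs. At that setting it also matched at sites near Nanog, Zfp42, Sall4, Klf5 and Klf2, and the share of all sites was not computed. A second Oct4 S151M summit 32.8 kb upstream scored 11.0, and its site held a MORE match without a mismatch.

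**Figure D3:**
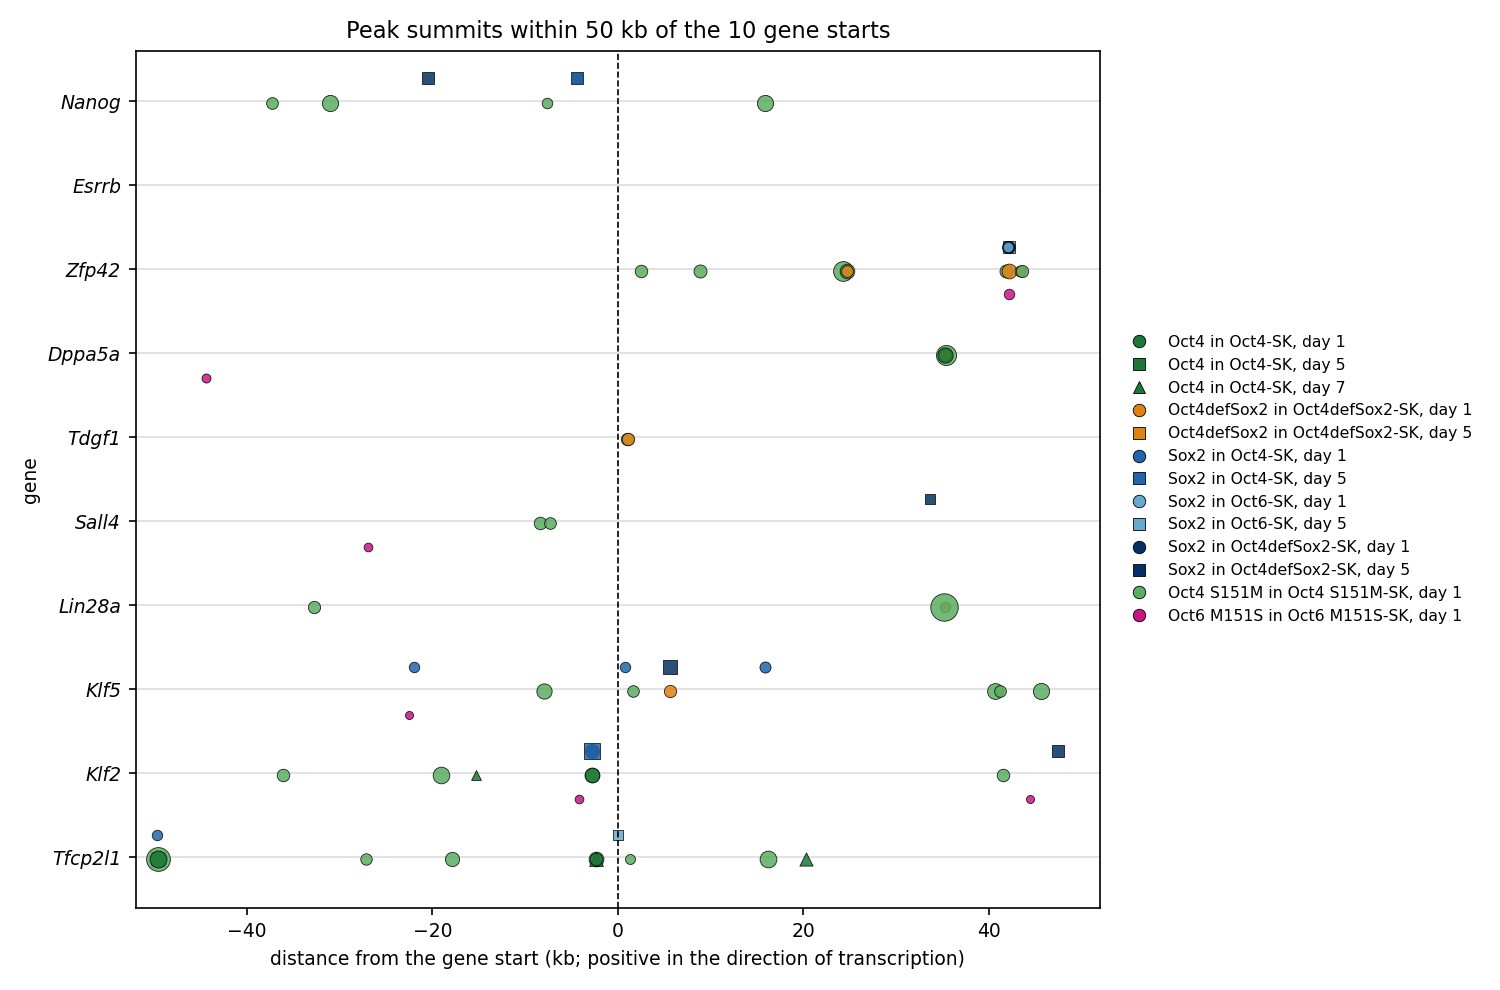
Summits around the start of each gene (rows), by distance from the start in kb (x axis, positive in the direction of transcription). Colour gives the factor and cocktail, shape the day and size rises with the score; Sox2 summits stand above each line and Oct6 M151S below, and the large circle at Lin28a is the Oct4 S151M summit with a score of 595.

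Klf5 and Klf2 are Krüppel-like factors that, with Klf4, sustain self-renewal. Klf5 had 11 summits at 10 sites and none of Oct4 in Oct4-SK cells. Its only shared site, 5.62 kb downstream of the start in a UTR of Klf5, held Sox2 in Oct4defSox2-SK cells at day 5 (score 14.3) and Oct4defSox2 at day 1 (score 11.1). Sox2 in Oct4-SK cells at day 1 had 3 summits near Klf5, with scores from 6.22 to 7.60, and none of them met a summit of another library. Oct4 at day 7 had a summit 55514 bp downstream (score 14.4).

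Klf2 was the gene with summits in the most libraries. The site 2.77 kb upstream of its start held 5 libraries of both antibodies. Oct4 at day 1 scored 21.8, Oct4defSox2 at day 1 scored 11.9 and Oct4 S151M scored 21.5. Sox2 scored 17.6 in Oct4defSox2-SK cells at day 1 and 26.4 in Oct4-SK cells at day 5. The last of these ranked 243 of 5832 summits of its library. The 5 summits lay within 61 bp, and the site held a Sox match and no POU match. Sox2 of Oct4-SK cells at day 1, and Oct4 at days 5 and 7, were not called there. Oct4 at day 7 had a summit 15326 bp upstream instead, with a score of 5.01, which 92.5% of that library reached. Oct4 and Oct4defSox2 at day 5 each had a summit about 54.7 kb downstream, with a score of 9.46 in both.

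Tfcp2l1, a transcription factor downstream of LIF signalling, was the only one of the 10 genes with an Oct4 summit on all 3 days, though at no single site. The site 49.6 kb upstream, in an intron of Clasp1, was the closest to the edge of the window among all 50. It held Oct4 at day 1 (score 40.3) and day 5 (15.3), Oct4defSox2 at day 1 (11.9), Oct4 S151M (237) and Sox2 in Oct4-SK cells at day 1 (6.22). Only 5.09% of the Oct4 summits of day 1 scored as high as this one. No motif matched there at the mismatches allowed. With 1 mismatch more the MORE matched at 1 position, a setting for which the share of all sites was not computed. The site 2.32 kb upstream held Oct4 at day 1 (11.9) and day 7 (17.3) and Oct4 S151M (22.6), with an octamer. Oct4 at day 7 had another summit 20271 bp inside the gene (14.4). Sox2 in Oct6-SK cells at day 5 had one 68 bp from the start, with a score of 5.77.

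**Figure D4:**
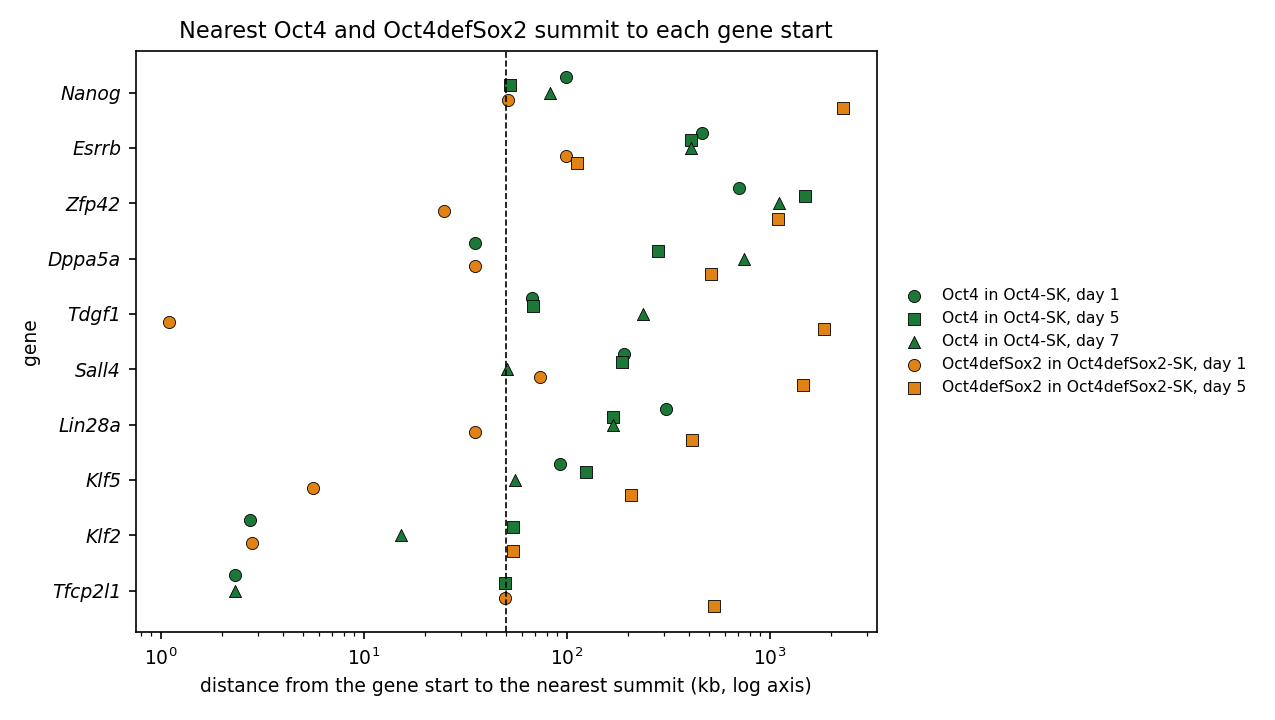
Distance in kb (log axis) from each gene start (rows) to the nearest summit of Oct4 in Oct4-SK cells (green) and Oct4defSox2 (orange), with circles for day 1, squares for day 5 and triangles for day 7. The dashed line is the limit of 50 kb; the Oct4 points of Dppa5a, Klf2 and Tfcp2l1 alone reach the left of it.

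Summits were also ranked by score within their own library. The summits of Oct4defSox2 at day 1 were reached or passed by 18.9% to 92.6% of their library. The 4 Oct4 summits of day 1 were reached or passed by 5.09% to 46.3%.

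**Figure D5:**
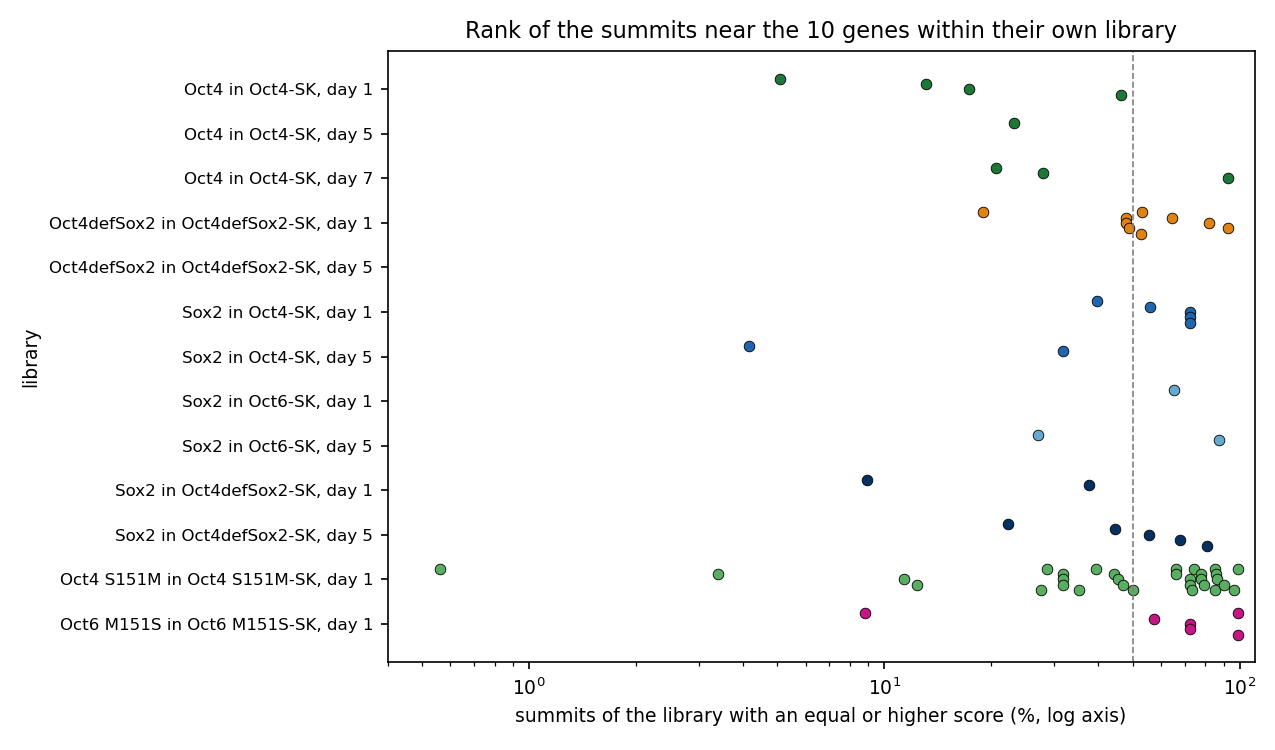
Each point is a summit near the 10 genes, placed by the percentage of summits of its own library with an equal or higher score (x axis, log scale), for each library (y axis). The dashed line is the median rank at 50%; the leftmost point is the Oct4 S151M summit near Lin28a at 0.563%.

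Oct4 and Sox2 antibodies met at 4 of the 50 sites: the Zfp42 site 42.1 kb downstream, the Klf5 site, the Klf2 site 2.77 kb upstream and the Tfcp2l1 site 49.6 kb upstream. The share of such sites among all sites of the series was not computed. At the Klf5 site the 2 antibodies met only across days. Oct4 and Sox2 of Oct4-SK cells on the same day met at the Tfcp2l1 site, at day 1. This was 1 of the 4 Oct4 summits of day 1 near these genes, against 19.8% of those elsewhere. Oct4defSox2 and Sox2 of Oct4defSox2-SK cells on the same day met at the Zfp42 and Klf2 sites, at day 1, which were 2 of 9 Oct4defSox2 summits (6.32% to 54.7%) against 8.72% elsewhere.

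Of the 50 sites, 28 lay between genes, 16 in introns and 6 in UTRs. Of all 50, 3 lay within 1 kb of the gene start and 27 lay over 20 kb away. The shares of all sites of the series at such places were not computed, so these counts show no preference for a location. For 42 sites the nearest coding gene start was that of the named gene. A POU match was found at 10 sites (20%, 11.2% to 33.0%), against 20.2% of all sites of the series. The MORE was found at 7 sites (14% against 10.7%, 6.95% to 26.2%), of which 6 held Oct4 S151M, and MORE+1 at 0 (0 to 7.13%, against 4.01%). The octamer was found at 3 sites (6% against 5.14%) and the Sox motif at 8 (16% against 14.9%). The KLF motif was found at 5 sites (10% against 3.76%, 4.35% to 21.4%) and AP-1 at 5 (10% against 12.7%). All motifs were read on both strands.

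Among the 6 sites of Oct4 in Oct4-SK cells near these genes, none held a SoxOct match (0 to 39.0%), against 9.43% of the 12974 such sites of the genome. None held MORE or MORE+1 either, against 9.32%. The SoxOct count depended on its pattern. With any base allowed at position 7 of the SoxOct pattern, a setting tried only after the counts above were known, 3 of the 50 sites matched, against 4.46% of all sites. They were the Zfp42 site 24.7 kb downstream, a Klf5 site 40709 bp downstream and the Tfcp2l1 site of Oct4 at day 7. By that pattern 1 of the 6 Oct4 sites matched, against 17.5% of such sites of the genome.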

How the data were processed

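ChIP-seq of 13 libraries and 3 inputs was deposited, 1 library per group, and the inputs were not analysed here. The submitters' processing notes name FastQC, Bowtie2 2.2.5, SAMtools, MACS2 and bedtools, with build mm10. The authors called peaks per library with MACS2 and deposited summits whose score is the −log10 p-value. Deposited narrow peaks, which only the S151M and M151S mutants have, add the fold enrichment as a ratio. Read depths are not in the deposited tables. The paper refers to library statistics in its supplement, which were not used here, so the precision that depth gives was not assessed. Reads of Oct4 at day 7 were shorter, and their length cannot be told apart from the day.

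Summits within 50 kb of the gene starts of GENCODE M21 were counted and joined within 100 bp, with Python 3.11.15, numpy 2.4.6 and pysam 0.24.0. Of all summits, 0 lay past a chromosome end of mm10. Motifs were searched on both strands within 100 bp of a site's centre, with up to 2 mismatches for SoxOct, 1 for MORE and MORE+1 and 0 for the octamer, Sox, KLF and AP-1 motifs. Octamers inside SoxOct matches were counted under both. All 10 genes are named, sites of 2 or more libraries are described, and other sites are given by counts or ranges. Pou5f1, Sox2 and Klf4 were left out of the other lists, since retroviruses supplied them. The genes and lists were chosen with earlier results of these data known. The SoxOct pattern as first run was kept for the counts given, and a looser pattern tried after those counts were seen is given as an alternative. The code was tested on simulated data. Alternatives were other windows, joining distances, score limits, equal list lengths, transcript starts, nearest genes and motif settings.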

Additional observations from a re-analysis of the deposited data

Results flagged for a closer look

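The number of the 10 genes with a Sox2 summit moved in opposite directions between cocktails from day 1 to day 5. It changed by -1 in Oct4-SK cells, from 3 to 2, by 1 in Oct6-SK cells, from 1 to 2, and by 2 in Oct4defSox2-SK cells, from 2 to 4. The difference was not tested, since each group held 1 library. The length of the summit lists moved as well, from 15222 to 5832 summits in Oct4-SK cells, from 3242 to 2673 in Oct6-SK cells and from 5794 to 21563 in Oct4defSox2-SK cells. The share of all coding genes with a Sox2 summit moved in the same directions, from 37.9% to 23%, from 6.93% to 9.97% and from 13% to 57.7%. With the 1038 strongest summits of every library, the counts of the 10 genes went from 0 to 1, from 0 to 1 and from 1 to 0. The share of all coding genes was not computed at that list length, so these changes of 1 gene show no direction.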

How the results depend on the processing

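No paired analysis was possible because each group held 1 library. Of 137 alternative values for 20 results, 47 counts or shares moved by over 1.5 times or out of the 95% interval and are given first. The share of all coding genes was computed for the main setting alone. The counts of genes below therefore cannot be read against such a share. Within 100 kb, the genes with a summit numbered 6, 4 and 5 for Oct4 at days 1, 5 and 7, 1 for Oct4defSox2 at day 5, 6 at day 1 and 4 at day 5 for Sox2 of Oct4-SK, 5 and 9 for Sox2 of Oct4defSox2-SK, and 8 for Oct6 M151S, with 120 joined sites, 12 of them with both antibodies. Within 25 kb they numbered 0 for Oct4 at day 5, 4 for Oct4defSox2 at day 1, 1 for Sox2 in Oct4-SK cells at day 1, 0 and 1 for Sox2 in Oct6-SK cells, 1 and 2 for Sox2 in Oct4defSox2-SK cells and 2 for Oct6 M151S, with 29 sites, 2 of them with both antibodies. With the 1038 strongest summits of every library, the counts were 1, 0 and 1 for Oct4, 0 for Oct4defSox2 at day 1, 0 and 1 for Sox2 with Oct4-SK, 0 and 1 with Oct6-SK, 1 and 0 with Oct4defSox2-SK, 1 for Oct4 S151M and 0 for Oct6 M151S, with 6 sites, 0 with both antibodies. The 1 Oct4 summit of day 1 left then met neither Oct4defSox2 nor Oct4 S151M (0% for each). With scores of at least 10, the counts were 1 for Oct4 at day 7, 0 for Sox2 in Oct4-SK cells at day 1, 0 and 1 in Oct6-SK cells, 2 in Oct4defSox2-SK cells at day 5 and 0 for Oct6 M151S, with 30 sites. Counting a summit only for its nearest coding gene gave 1 for Oct4 at day 7. With scores of at least 4, chosen after seeing the data, Oct6 M151S had 1, and without Oct4 S151M, also chosen then, 25 sites were left. The SoxOct pattern with any base at position 7, chosen after seeing the data, gave 16.7% of the Oct4 sites in place of 0, within the wide interval of 0 of 6. Further shares rose from 0 within their intervals. With 1 mismatch more, SoxOct and MORE each came to 16.7%. Within 100 kb, SoxOct came to 13.3%, MORE to 6.67% and the Oct4 summits of day 5 met by Oct4defSox2 to 16.7%. No Oct4 summit of day 5 was left within 25 kb or among the strongest 1038, so its sharing has no value there. Shares over 1 to 6 sites have wide intervals and cannot show small differences, and list length moved with most counts.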
